A study of Mus musculus with 26 samples.

Results

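The genes described here control RNA splicing in muscle and number 10: Srpk3, Mbnl1, Mbnl2, Mbnl3, Celf1, Celf2, Rbfox2, Rbm24, Rbm38 and Ptbp1. They were chosen by name, and each was matched by its Ensembl identifier to 1 of the 55341 genes counted in every library. All 10 passed the filter on low counts in both experiments, which needs enough counts in only some of the libraries. Srpk3 and Rbm24 had at most 8 counts per siRNA library at 0 h and at most 14 per library with the empty vector. They passed through the libraries in which they were higher, so their passing is no separate evidence of those differences. RNA-Seq had been made from C2C12 cells, a mouse myoblast line that exits the cell cycle and fuses into myotubes in differentiation medium. The study asked how SMYD3, a lysine methyltransferase, affects this process. The siRNA experiment comprised 18 libraries, 3 for each siRNA (the control siCtrl and the Smyd3 siRNAs siSMYD3#1 and siSMYD3#2) at each of 0 h and 24 h of differentiation. In the overexpression experiment, 8 libraries came from SMYD3 CL5, a single clone carrying a retroviral pREV vector for HA- and FLAG-tagged SMYD3, and from sub-cloned cells carrying the empty pREV vector, at the same 2 time points with 2 libraries per condition. Each siRNA condition held 2 libraries of RNA extracted with NucleoSpin and 1 extracted with TRIzol, whereas all overexpression libraries were TRIzol extracts. The study's records also give the siRNA NucleoSpin and TRIzol libraries different cell passages, so extraction and passage cannot be told apart.

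Muscle cells change the exons they join as they differentiate. MBNL and RBFOX proteins bind pre-mRNA near alternative exons and favour the forms found in mature muscle, CELF proteins often act against MBNL, and PTBP1 represses many muscle and neuronal exons in undifferentiated cells. RBM24 and RBM38 are closely related RNA-binding proteins of muscle, and SRPK3 is a muscle kinase of the SR proteins, which help the spliceosome to recognize exons.

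Between 14315193 and 60398170 reads were counted on genes in the siRNA libraries and between 21124675 and 67853386 in the overexpression libraries. Levels are given as CPM (library-size-scaled counts with TMM factors), and a gene was called changed at an edgeR Benjamini-Hochberg adjusted p-value under 0.01 over all genes tested. The targeted gene, Smyd3, was at 19.5 ± 1.48 CPM with siCtrl at 24 h and at 6.82 ± 2.45 CPM with siSMYD3#2 (SD, n = 3 each). In the libraries labelled siSMYD3#1 it was at 16.5 ± 2.40 CPM (SD, n = 3), with a log2 fold change of -0.24 (SE 0.16, edgeR adjusted p = 0.414). The lower Smyd3 RNA that their label implies was thus not detected in these libraries. By extraction, the siSMYD3#1 values at 24 h were 19.3 against 20.7 CPM with siCtrl in TRIzol libraries. In NucleoSpin libraries they were 15.2 and 15.1 against 17.8 and 19.9 CPM. The study itself assayed the knockdown by qPCR of Smyd3 RNA and by western blot of SMYD3. Smyd3 did not differ detectably in SMYD3 CL5 from the vector control either, with 22.6 ± 2.36 CPM against 17.7 ± 0.812 CPM at 24 h (SD, n = 2 each, edgeR adjusted p = 0.671). Whether the counted mouse gene covers the vector's transcript was not tested. The study reports stable tagged SMYD3 protein in its clones by western blot and immunofluorescence. All 7 markers of the muscle lineage had a median of at least 1 CPM over the 26 libraries, and their summed level ranged from 352 to 2877 CPM. Of the markers of other cell types, 0 of 4 adipocyte, 0 of 4 endothelial and 0 of 5 epithelial genes had such a median, as did 1 of 4 leukocyte genes (Cd68) and 1 of 5 neuronal genes (Tubb3). In bulk RNA, fewer cells expressing a gene and less RNA per cell cannot be told apart.

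Srpk3, Rbm24 and Rbm38 were the genes of the 10 that differed between siSMYD3#1 and siCtrl at 24 h, and the 250 bases before the RefSeq start of each are shown to place this result in the genome (GRCm38.p6, plus strand, 5′ to 3′). Capitals mark E-boxes (CANNTG), the sites of myogenic bHLH factors such as myogenin, and the match to the MEF2 element.
Srpk3, chrX:73774155-73774404: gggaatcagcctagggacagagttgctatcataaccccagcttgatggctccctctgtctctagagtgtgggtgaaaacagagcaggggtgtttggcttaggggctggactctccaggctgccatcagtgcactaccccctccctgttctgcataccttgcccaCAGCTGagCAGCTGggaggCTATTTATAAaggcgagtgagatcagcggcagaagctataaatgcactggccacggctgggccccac
Rbm24, chr13:46418050-46418299: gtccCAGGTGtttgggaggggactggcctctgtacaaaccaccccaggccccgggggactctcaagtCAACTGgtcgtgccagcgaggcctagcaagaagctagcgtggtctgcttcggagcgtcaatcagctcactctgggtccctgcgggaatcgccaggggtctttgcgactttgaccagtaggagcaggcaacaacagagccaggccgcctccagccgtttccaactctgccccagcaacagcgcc
Rbm38, chr2:173021652-173021901: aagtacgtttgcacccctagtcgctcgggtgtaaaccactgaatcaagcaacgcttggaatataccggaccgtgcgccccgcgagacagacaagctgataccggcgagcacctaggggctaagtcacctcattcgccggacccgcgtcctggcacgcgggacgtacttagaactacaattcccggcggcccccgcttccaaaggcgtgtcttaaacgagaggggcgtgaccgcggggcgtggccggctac

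In the Srpk3 window, 2 E-boxes of the form CAGCTG began 86 and 78 bases before the start and a match to the MEF2 element began 67 bases before it. Of all 32851 RefSeq promoter windows of the same length, 66.2% held an E-box, 13.0% held CAGCTG and 2.92% held the MEF2 element on either strand. The Rbm24 window held 2 E-boxes, 246 and 183 bases before the start, and the Rbm38 window held none of the 3 motifs. The sequence after the RefSeq start of Rbm24 was not found in the annotated transcripts, so its orientation was not checked. The Rbm38 window lies inside the GENCODE gene, which starts at 173020498, so its lack of motifs describes an internal start. CCCTCC, a sequence reported for SMYD3 binding, was found on either strand in 35.2% of all windows, and it began 113 bases before the Srpk3 start and 236 bases before that of Rbm24. The study also names GAGGGG as such a sequence, which was not searched for over all windows. The printed Srpk3, Rbm24 and Rbm38 windows each hold GAGGGG or its reverse complement. RefSeq windows were found for 9 of the 10 genes, 14 windows in all. CCCTCC was in 7 of these 14 windows, the count to set beside the 35.2% of all windows. They belong to 7 of the 9 genes (Celf1, Celf2, Mbnl2, Mbnl3, Ptbp1, Rbm24 and Srpk3), of which Celf2 has several windows. Srpk3 alone among these 9 had CAGCTG or the MEF2 element. These matches describe letters, not binding.

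At 24 h in siCtrl cells, Srpk3 (X:73774405-73778925) and Rbm24 (13:46418434-46431095) rose from near 0, Celf2 and Rbfox2 rose less, and Mbnl3 and Ptbp1 fell. This comparison describes differentiation in cells given the control siRNA. In all, 6 of the 10 genes were called, 4 higher and 2 lower, where 29.4% of all 15820 genes tested were called. The median log2 fold change of the 10 was -0.04, beside 0.03 over all genes. In the vector control, with 2 libraries per time, the changes of these 6 genes were smaller. Their log2 fold changes there were 1.16 (Srpk3), 3.77 (Rbm24), 0.50 (Celf2), 0.21 (Rbfox2), -0.15 (Mbnl3) and -0.16 (Ptbp1). None was called there (edgeR adjusted p of 0.449 or more), beside 0% of all genes.

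Srpk3, the SR protein kinase, had 3 counts in the TRIzol and 2 and 8 counts in the NucleoSpin libraries of siCtrl at 0 h, and 65, 119 and 85 counts in the same order at 24 h. In CPM these were 0.11, 0.0732 and 0.137 at 0 h and 2.29, 5.22 and 5.55 at 24 h. Every 24 h library was far above every 0 h library, and the TRIzol library was the lowest at 24 h. The fitted log2 fold change was 5.19 (SE 0.39, edgeR adjusted p = 1.53e-08), and the ratio of summed counts was 35.1 with an exact 95% interval of 20.2 to 66.7 that covers counting error only. Myog, the muscle transcription factor myogenin, rose over the same libraries from 1.05 ± 0.843 to 180 ± 110 CPM (SD, n = 3 each), and it too was lowest in the TRIzol library at 24 h, at 55.6 CPM against 222 and 262 CPM in the NucleoSpin libraries. The part of this difference between libraries in the Srpk3 values was not tested. The study had itself listed Srpk3 from these libraries, so its direction here is not independent evidence.

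Rbm24, which promotes muscle-specific exon inclusion, had 1, 2 and 5 counts in the siCtrl libraries at 0 h and 98, 64 and 30 counts at 24 h, again with the TRIzol library first. In CPM the 24 h values were 3.45, 2.80 and 1.96. The groups did not overlap, and here the TRIzol library was the highest at 24 h. The log2 fold change was 5.17 (SE 0.61, edgeR adjusted p = 2.72e-06), and the ratio of summed counts was 40.7 (exact 95% interval 20.2 to 95.6). Rbm38 (2:173020498-173034734), the relative of Rbm24, did not share this rise. It was at 29.7, 15.4 and 20.6 CPM at 0 h and 22.2, 19.8 and 20.9 CPM at 24 h, groups that overlapped, with a log2 fold change of -0.03 (SE 0.15, edgeR adjusted p = 0.880).

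Among the RNA-binding antagonists, Celf2 (2:6539694-7509563) rose from 43.9 CPM in the TRIzol and 61.8 and 53.0 CPM in the NucleoSpin libraries to 146, 95.6 and 103 CPM. All 24 h libraries were above all 0 h libraries, and the log2 fold change was 1.10 (SE 0.18, edgeR adjusted p = 0.000112). Celf1 (2:90940382-91019497), the best known antagonist of MBNL1, was barely counted, with 6 to 63 counts per siRNA library and 0.29 to 1.43 CPM. At this depth a log2 change of -0.23 (SE 0.41, edgeR adjusted p = 0.689) could not be told from 0. Its annotated exons share no bases with other genes, and so few counts are unusual for a widely expressed gene. Whether the upstream counting or annotation lowered them could not be checked from these counts, so its level is given as counted. Rbfox2 (15:77078990-77307004) rose in every pair of libraries with the same extraction, from 354, 304 and 313 CPM to 571, 428 and 435 CPM, a log2 fold change of 0.55 (SE 0.08, edgeR adjusted p = 2.72e-05).

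Ptbp1 (10:79854427-79864771), the repressor of muscle exons, fell from 484, 369 and 406 CPM to 264, 207 and 215 CPM, with the TRIzol library the highest at both times. The groups did not overlap, and the log2 fold change was -0.88 (SE 0.11, edgeR adjusted p = 5.39e-06). Mbnl3 (X:51117269-51206532), a family member known from proliferating myoblasts, fell further, from 18.4, 15.6 and 13.5 CPM to 7.39, 5.17 and 6.33 CPM. Its log2 fold change was -1.33 (SE 0.16, edgeR adjusted p = 4.27e-06), and no 24 h value reached any 0 h value. The fall of Mbnl3 missed the threshold when all 26 libraries were fitted together (edgeR adjusted p = 0.0197), as did the rise of Rbfox2 without the extraction covariate (edgeR adjusted p = 0.0138).

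Mbnl1 (3:60472830-60629750) and Mbnl2 (14:120275669-120431697), the main MBNL genes of these cells, were not called. Mbnl2 ranged from 169 to 208 CPM at 0 h and from 163 to 211 CPM at 24 h (edgeR adjusted p = 0.834). Mbnl1 separated by extraction, which cannot be told apart from passage, and its values are therefore given by extraction. Over the siRNA conditions at 0 h it lay between 367 and 396 CPM in the 3 TRIzol libraries and between 169 and 274 CPM in the 6 NucleoSpin libraries, and at 24 h between 362 and 437 CPM and between 141 and 229 CPM. No TRIzol library overlapped with a NucleoSpin library at either time. With siCtrl, Mbnl1 moved from 396 to 362 CPM in the TRIzol libraries and from 228 and 204 to 141 and 142 CPM in the NucleoSpin libraries. Over all siCtrl libraries the log2 fold change was -0.45 (SE 0.15, edgeR adjusted p = 0.028), which missed the threshold, and over the NucleoSpin libraries alone it was -0.63 (SE 0.11, edgeR adjusted p = 0.00023). Without the siSMYD3#1 TRIzol library at 0 h, which adds to the shared estimate of the spread, the siCtrl change of Mbnl1 also passed (edgeR adjusted p = 0.00547). Rbm38 and Ptbp1 also separated by extraction at 0 h, with TRIzol medians 1.72 and 1.19 times the NucleoSpin medians, as did Rbfox2 with 1.21 times. At 24 h Ptbp1 and Mbnl2 also separated, with TRIzol medians 1.49 and 0.799 times the NucleoSpin medians.

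**Figure D1:**
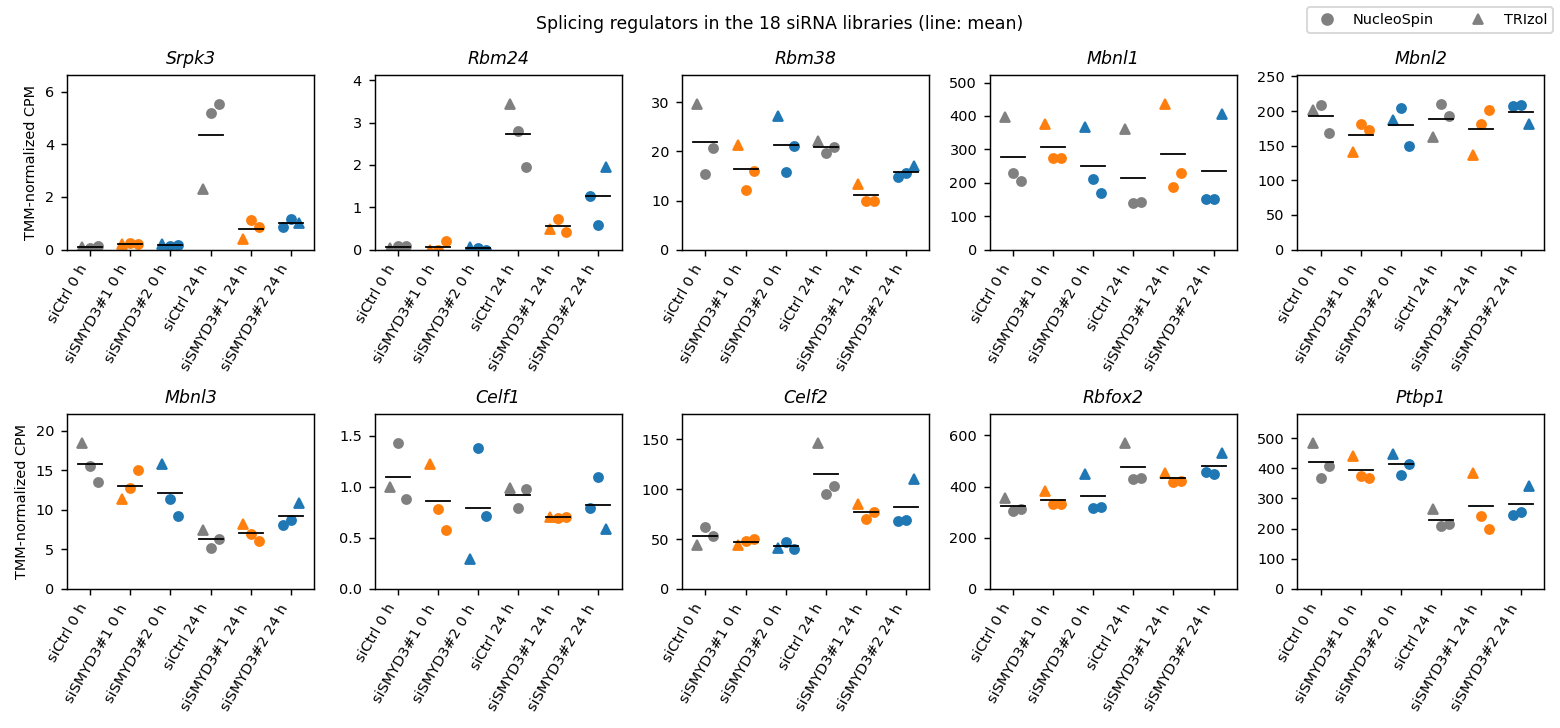
Level of each of the 10 genes in the 18 siRNA libraries, in TMM-normalized CPM on a linear axis from 0, by siRNA and time; circles are NucleoSpin and triangles TRIzol libraries, and the line is the mean of 3. Srpk3 reached 2.29 to 5.55 CPM in siCtrl at 24 h and at most 1.15 CPM with either siSMYD3, and Mbnl1 separated by extraction.

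Levels were also compared per kilobase of exon, with all annotated exons of a gene merged. The transcripts expressed may be shorter, so the order depends on this length. In mean CPM with siCtrl at 0 h, Mbnl1 (276) was above Mbnl2 (193) and Celf2 (52.9) above Rbm38 (21.9). Per kilobase both orders were reversed. Ptbp1 led at 0 h with 88.5 ± 12.4 CPM per kb, before Rbfox2 with 39.8 ± 3.26. Mbnl2 with 16.1 ± 1.75, Mbnl1 with 14.8 ± 5.58 and Rbm38 with 7.65 ± 2.52 came next (SD, n = 3 each). Celf2 followed with 2.04 ± 0.346 and Mbnl3 with 1.81 ± 0.285, and Celf1, Srpk3 and Rbm24 lay at or under 0.13 CPM per kb. The neighbours Mbnl2 and Mbnl1, and Celf2 and Mbnl3, differed by less than their spread. At 24 h Rbfox2 led with 58.7 ± 9.88 CPM per kb and Ptbp1 was at 48.2 ± 6.42, a pair whose ranges overlapped. Mbnl2, Mbnl1, Rbm38 and Celf2 followed with 15.8 ± 2.00, 11.5 ± 6.80, 7.30 ± 0.424 and 4.44 ± 1.06 CPM per kb (SD, n = 3 each). The place of Mbnl1 differed by extraction. In the TRIzol library it was at 19.3 CPM per kb, above Mbnl2 at 13.6, and in the NucleoSpin libraries it was at 7.51 and 7.56 CPM per kb, within the range of Rbm38 over the 3 libraries (6.89 to 7.74). Srpk3 reached 1.56 ± 0.645 and Rbm24 0.784 ± 0.214 CPM per kb, and Mbnl3 dropped to 0.720 ± 0.127. As counted, Celf1 was then the lowest of the 10, with 0.109 ± 0.0132 CPM per kb.

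Shares within the MBNL family rest on the same merged exon lengths. Summed per kilobase, Mbnl3 made up 5.58 ± 0.284% of the family total in siCtrl at 0 h and 2.59 ± 0.341% at 24 h (SD, n = 3 each). The range was 5.27% to 5.81% at 0 h and 2.30% to 2.97% at 24 h, so the shares did not overlap. The Mbnl1 share also separated by extraction. Mbnl1 took 29.3% of the total in 1 NucleoSpin library of siCtrl at 24 h and 57.2% in the TRIzol library, whereas Mbnl3 took at most 2.97% in any siCtrl library at that time.

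**Figure D2:**
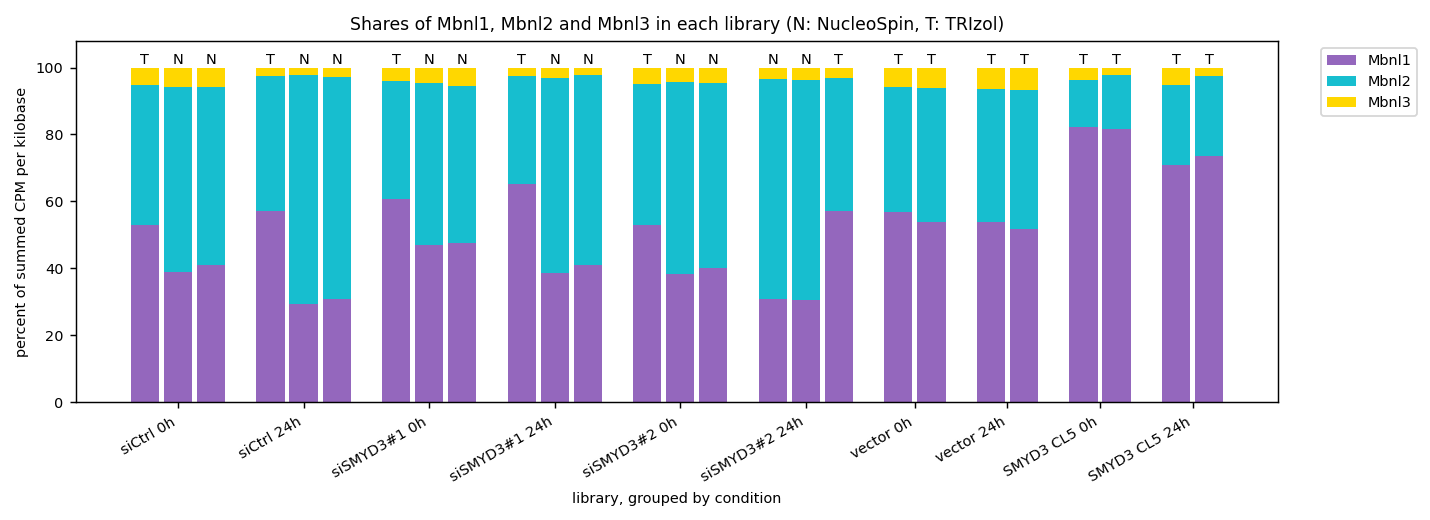
Share of Mbnl1, Mbnl2 and Mbnl3 in the summed CPM per kilobase of the family, 1 bar per library, grouped by condition; N and T above the bars mark NucleoSpin and TRIzol. Mbnl1 took 70.9% to 82.2% in SMYD3 CL5 and 51.6% to 56.7% in the vector control.

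The same times were compared within each Smyd3 siRNA. With siSMYD3#1, 7 of the 10 genes were called between 24 h and 0 h (25.4% of all genes), and with siSMYD3#2, 5 of the 10 (19.0% of all genes). Srpk3, Rbm24, Celf2 and Rbfox2 were higher and Ptbp1 was lower at 24 h with all 3 siRNAs. The size of each change is set side by side below, since the siRNA effects at 24 h share the siCtrl libraries. Srpk3 changed by 5.19 on the log2 scale with siCtrl, by 1.78 (SE 0.41, edgeR adjusted p = 0.0023) in the libraries labelled siSMYD3#1 and by 2.65 (SE 0.41, edgeR adjusted p = 0.000124) with siSMYD3#2. Rbm24 changed by 5.17, 3.24 (SE 0.80, edgeR adjusted p = 0.0037) and 5.05 (SE 0.76, edgeR adjusted p = 8.77e-05) in the same order. Its 0 h libraries held only 0, 0 and 4 counts with siSMYD3#1 and 1, 2 and 0 with siSMYD3#2, so the ratio of summed counts had a wide interval, 10.5 (exact 95% interval 3.81 to 40.3) and 41.1 (13.6 to 203). Celf2 changed by 1.10, 0.70 and 0.93, and Rbfox2 by 0.55, 0.31 and 0.42, the latter with edgeR adjusted p-values of 0.00553 and 0.000805 for siSMYD3#1 and siSMYD3#2. Ptbp1 fell by 0.88, 0.56 and 0.57 on the log2 scale.

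Mbnl3 and Rbm38 were not called with every siRNA. Mbnl3 fell by 1.33 on the log2 scale with siCtrl and by 0.89 (SE 0.16, edgeR adjusted p = 0.00036) with siSMYD3#1, whereas with siSMYD3#2 its log2 fold change was -0.38 (SE 0.16, edgeR adjusted p = 0.0782). The siSMYD3#2 libraries overlapped, with 15.8, 11.3 and 9.27 CPM at 0 h and 10.9, 8.06 and 8.65 CPM at 24 h, the TRIzol library first. Within each extraction the 24 h values were below the 0 h values. Rbm38 fell by 0.56 (SE 0.16, edgeR adjusted p = 0.00897) with siSMYD3#1, and its log2 fold change was -0.41 (SE 0.16, edgeR adjusted p = 0.0492) with siSMYD3#2. None of the 10 genes passed the threshold for a change in the siSMYD3#1 effect from 0 h to 24 h (0.215% of all genes called, 3 of the 10 at an unadjusted p under 0.05, 1 of the 10 by DESeq2) or in the siSMYD3#2 effect (0.0190% of all genes, 2 of the 10 unadjusted, 0 by DESeq2). Srpk3 came nearest, with a log2 difference of -3.41 (SE 0.61, edgeR adjusted p = 0.0113) for siSMYD3#1 and -2.54 (SE 0.62, edgeR adjusted p = 0.0853) for siSMYD3#2. The siSMYD3#1 value passed in DESeq2 (adjusted p = 0.00091) and without the TRIzol library at 24 h of either siCtrl (edgeR adjusted p = 0.00325) or siSMYD3#2 (edgeR adjusted p = 0.00595). For Mbnl3 the difference was 0.95 (SE 0.23, edgeR adjusted p = 0.0855) with siSMYD3#2.

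Several calls within siSMYD3#1 rested on single libraries. Without 1 or another of the siSMYD3#1 libraries the adjusted p-value of the 24 h change rose as far as 0.0232 for Srpk3, 0.0514 for Celf2, 0.0359 for Rbfox2, 0.0322 for Rbm24 and 0.0361 for Rbm38, always in the same direction. For Celf2, Rbfox2 and Rbm38 leaving out a NucleoSpin library of siCtrl or siSMYD3#2 also ended the call (edgeR adjusted p up to 0.0136, 0.0106 and 0.0111). With siSMYD3#2, Celf2 lost its call without the TRIzol library at 24 h (edgeR adjusted p = 0.0108) or 1 of the NucleoSpin libraries at 0 h (edgeR adjusted p = 0.0101).

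The libraries of each Smyd3 siRNA were then compared with siCtrl at each time. At 0 h, none of the 10 genes was called with siSMYD3#1 (1.43% of all genes) or siSMYD3#2 (0.531% of all genes), by edgeR or DESeq2, and 1 of the 10 had an unadjusted p under 0.05 in each case. At 24 h, Srpk3, Rbm24 and Rbm38 were lower in the libraries labelled siSMYD3#1, 3 of the 10 beside 5.85% of all genes, and Srpk3 was lower with siSMYD3#2, 1 of the 10 beside 3.70% of all genes. The median log2 fold change of the 10 was -0.26 with siSMYD3#1 and -0.09 with siSMYD3#2, and over all genes it lay within 0.01 of 0.

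Srpk3 at 24 h had 0.398 CPM in the TRIzol and 1.12 and 0.849 CPM in the NucleoSpin libraries with siSMYD3#1, and 1.02, 0.849 and 1.15 CPM with siSMYD3#2, against 2.29, 5.22 and 5.55 CPM with siCtrl. Every library of either Smyd3 siRNA lay below every siCtrl library. The log2 fold change was -2.44 (SE 0.31, edgeR adjusted p = 4.6e-05) with siSMYD3#1 and -1.99 (SE 0.31, edgeR adjusted p = 0.000592) with siSMYD3#2. Without the extraction covariate the siSMYD3#2 difference missed the threshold (edgeR adjusted p = 0.0198). At 0 h every library labelled siSMYD3#1 or siSMYD3#2 had slightly more Srpk3 than the siCtrl libraries, 0.216 ± 0.016 and 0.171 ± 0.0204 against 0.107 ± 0.0321 CPM (SD, n = 3 each), from 4 to 7 counts per library of either Smyd3 siRNA, and neither difference was called (edgeR adjusted p = 0.430 and 0.855). The level of Myog at 24 h moved with Srpk3, at 14.2 ± 7.53 CPM with siSMYD3#1 and 41.7 ± 9.30 CPM with siSMYD3#2 (SD, n = 3 each). Summed over the 7 muscle lineage markers, the level was 828 to 2431 CPM with siSMYD3#1 and 859 to 1947 CPM with siSMYD3#2, beside 1239 to 2877 CPM with siCtrl. The part of these in the Srpk3 difference was not tested.

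Rbm24 had 0.490, 0.725 and 0.425 CPM with siSMYD3#1 at 24 h, all below the lowest siCtrl library at 1.96 CPM. Its log2 fold change was -2.28 (SE 0.49, edgeR adjusted p = 0.00436), on 42 counts against 192. The call did not survive leaving out the siCtrl TRIzol library, 1 of the siCtrl NucleoSpin libraries or any of the siSMYD3#1 libraries at 24 h (edgeR adjusted p up to 0.0271), nor the NucleoSpin libraries alone (log2 fold change -1.98, edgeR adjusted p = 0.0138). With siSMYD3#2 the values were 1.96, 1.27 and 0.577 CPM, a range that met that of siCtrl only across extractions. Within TRIzol the values were 1.96 against 3.45 CPM with siCtrl, and within NucleoSpin 1.27 and 0.577 against 2.80 and 1.96 CPM. The log2 fold change was -1.11 (SE 0.45, edgeR adjusted p = 0.145).

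Rbm38, whose protein is known to bind and stabilize the mRNA of the cell cycle inhibitor Cdkn1a, had 13.3, 9.90 and 9.91 CPM with siSMYD3#1 at 24 h, below 22.2, 19.8 and 20.9 CPM with siCtrl in the same order. The log2 fold change was -0.94 (SE 0.16, edgeR adjusted p = 0.000586), and -1.03 (SE 0.18, edgeR adjusted p = 0.00061) over the NucleoSpin libraries. It missed the threshold in a fit of all 26 libraries (edgeR adjusted p = 0.0164) and without the extraction covariate (edgeR adjusted p = 0.0934). With siSMYD3#2 the values were 17.0, 14.7 and 15.6 CPM, between the other 2 groups and overlapping with neither. The difference of siSMYD3#2 from siCtrl was -0.41 on the log2 scale (SE 0.16, edgeR adjusted p = 0.115).

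The other 7 genes were not called at 24 h, but several stood on the same side of siCtrl with both siRNAs. Celf2 was at 77.2 ± 7.66 CPM with siSMYD3#1 and 82.4 ± 24.0 CPM with siSMYD3#2 beside 115 ± 27.4 CPM with siCtrl (SD, n = 3 each), with edgeR adjusted p-values of 0.0473 and 0.102. In the NucleoSpin libraries alone, the log2 fold changes of Celf2 were -0.44 (SE 0.10, edgeR adjusted p = 0.00579) and -0.54 (SE 0.10, edgeR adjusted p = 0.00184), past the threshold for both. Mbnl3 was higher than siCtrl with siSMYD3#2, with every library above, by 0.55 (SE 0.17, edgeR adjusted p = 0.0491), and by 0.18 (SE 0.17, edgeR adjusted p = 0.592) with siSMYD3#1. Mbnl1 was higher with siSMYD3#1 within both extractions, at 437 against 362 CPM in TRIzol and at 189 and 229 against 141 and 142 CPM in NucleoSpin libraries. Its log2 fold change was 0.46 (SE 0.15, edgeR adjusted p = 0.0678) over all libraries and 0.57 (SE 0.11, edgeR adjusted p = 0.00173) over the NucleoSpin libraries. Ptbp1 had log2 fold changes of 0.23 (SE 0.11, edgeR adjusted p = 0.202) and 0.29 (SE 0.11, edgeR adjusted p = 0.115), and Rbfox2, Mbnl2 and Celf1 had adjusted p-values of 0.351 or more with both siRNAs.

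Between siSMYD3#1 and siSMYD3#2 at 24 h, none of the 10 genes was called by edgeR or DESeq2 (3.36% of all genes, 4 of the 10 at an unadjusted p under 0.05). Rbm38 was the nearest, with a log2 difference of -0.53 (SE 0.16, edgeR adjusted p = 0.0483) and all siSMYD3#1 libraries below all siSMYD3#2 libraries. For Srpk3 the difference was -0.45 (SE 0.34, edgeR adjusted p = 0.494). Smyd3 itself was 1.27 higher with siSMYD3#1 than with siSMYD3#2 on the log2 scale (SE 0.17, edgeR adjusted p = 0.000176), while Myog was lower with siSMYD3#1 (log2 difference -1.77, SE 0.29, edgeR adjusted p = 0.00211). Mbnl1 passed over the NucleoSpin libraries alone, with a log2 difference of 0.47 (SE 0.11, edgeR adjusted p = 0.00812).

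**Figure D3:**
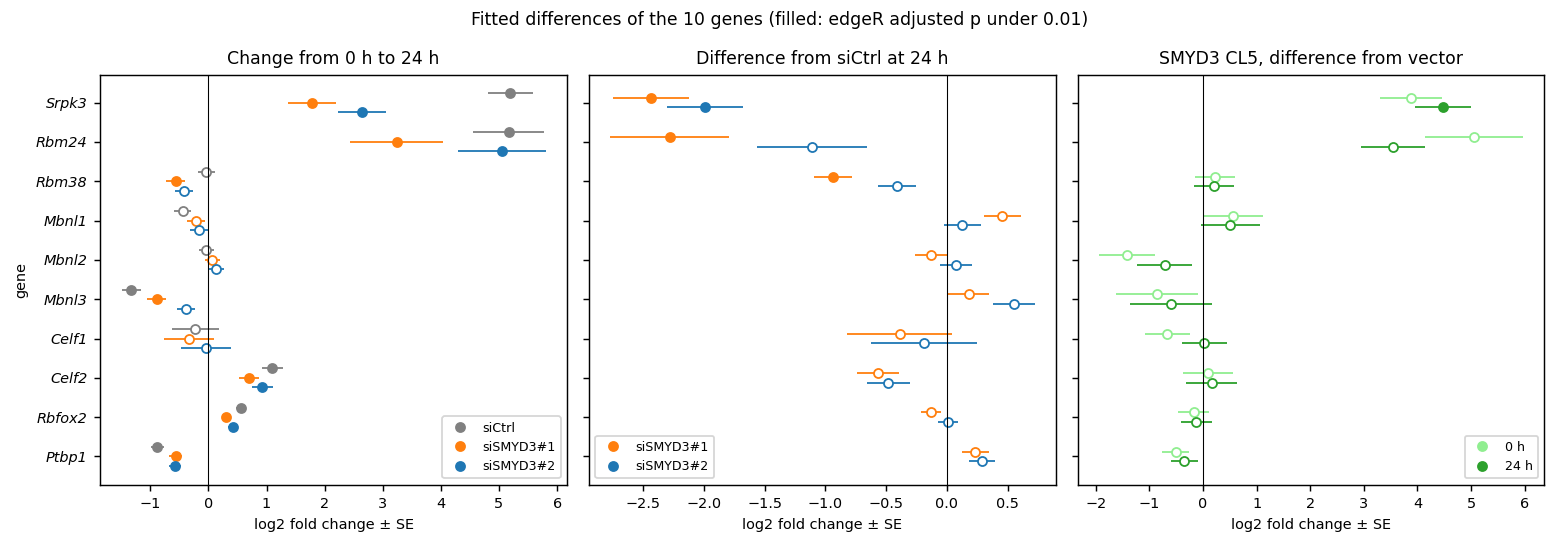
Fitted log2 fold changes of the 10 genes with their SE, between 24 h and 0 h by siRNA (left), against siCtrl at 24 h (middle) and for SMYD3 CL5 against the vector control (right); filled points passed an edgeR adjusted p-value of 0.01. Srpk3 was called in 6 of the 7 contrasts drawn and missed the threshold in SMYD3 CL5 at 0 h (adjusted p = 0.0135).

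In the overexpression experiment, the clone was compared with the vector control. All SMYD3 CL5 libraries came from 1 clone, so the p-values do not measure the spread between clones. In these libraries an effect of SMYD3 cannot be told apart from other differences of this clone. The study itself addressed clonal effects with Smyd3 siRNA in this clone, by other assays. At 24 h Srpk3 was higher in SMYD3 CL5, the only 1 of the 10 genes called, beside 0.964% of all 17835 genes tested. Its values were 5.52 and 4.24 CPM in SMYD3 CL5 and 0.222 and 0.215 CPM in the vector control, which did not overlap. The log2 fold change was 4.47 (SE 0.52, edgeR adjusted p = 0.00587), on 403 counts against 24, a ratio of 23.7 (exact 95% interval 15.7 to 37.5, counting error only). Leaving out any 1 of the 4 vector libraries or either 24 h SMYD3 CL5 library ended the call, with a log2 fold change of 4.26 to 4.64 and an edgeR adjusted p of up to 0.0789. Rbm24 showed the same pattern at 2.95 and 2.26 against 0.266 and 0.184 CPM, with a log2 fold change of 3.54 (SE 0.60, edgeR adjusted p = 0.0242) that missed the threshold in edgeR and passed it in DESeq2 (adjusted p = 8.66e-06), and in edgeR without either SMYD3 CL5 library at 0 h (adjusted p = 0.00291 and 0.00305).

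At 0 h, before differentiation medium, none of the 10 genes was called (1.07% of all genes, 3 of the 10 at an unadjusted p under 0.05), and DESeq2 called Srpk3 and Rbm24. Srpk3 was at 0.883 and 2.02 CPM in SMYD3 CL5 beside 0.0942 and 0.0973 CPM in the vector control, with a log2 fold change of 3.88 (SE 0.57, edgeR adjusted p = 0.0135). It passed the threshold with either SMYD3 CL5 library alone at 0 h (edgeR adjusted p = 0.00133 and 0.00944). Rbm24 had 13 and 30 counts in SMYD3 CL5 and 0 and 1 in the vector control, a ratio of 39.9 with an exact 95% interval of 6.78 to 1611. Myog was likewise already present in the clone at 0 h, at 15.9 and 81.9 CPM beside 0.283 and 0.535 CPM, and the library with more Myog was also the one with more Srpk3 and Rbm24. Whether Myog has a part in these levels was not tested.

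The 2 times were also compared within each cell line. In the vector control none of the 10 genes was called by edgeR (0% of all genes, 1 of the 10 at an unadjusted p under 0.05, 1256 of all genes unadjusted, 119 of all genes by DESeq2), and none in SMYD3 CL5 (0% of all genes, 2 of the 10 unadjusted, 1137 of all genes unadjusted, 109 by DESeq2). Srpk3 was at 0.0958 ± 0.00224 CPM at 0 h and 0.218 ± 0.00489 CPM in the vector control, and at 1.45 ± 0.806 and 4.88 ± 0.908 CPM in SMYD3 CL5 (SD, n = 2 each). The 24 h level in vector cells was far below the 4.35 ± 1.80 CPM of siCtrl cells (SD, n = 3), as was Myog at 7.15 ± 0.173 CPM (SD, n = 2) beside 180 CPM, although these experiments were scaled separately. The siCtrl means also mix extractions, whereas all vector libraries were TRIzol. In the siCtrl TRIzol library at 24 h, Srpk3 was at 2.29 CPM and Myog at 55.6 CPM. The change in the SMYD3 CL5 effect from 0 h to 24 h was not called for any of the 10 (0% of all genes, 0 of the 10 unadjusted, 312 of all genes unadjusted, 2 by DESeq2).

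Libraries of SMYD3 CL5 at 0 h stood apart from each other. The median absolute log2 difference over all genes tested was 0.697 between them, against 0.162 between the vector libraries at 0 h. Mbnl1 was at 1135 CPM in 1 and 294 CPM in the other, Mbnl2 at 125 and 36.8 CPM, Mbnl3 at 23.1 and 3.87 CPM and Celf2 at 150 and 48.4 CPM. The library lower in these 4 genes was the one with more Srpk3 and Rbm24, and at 24 h the 2 libraries differed most in Mbnl3 among the 10, at 21.7 and 7.32 CPM. With the lower library alone standing for the clone at 0 h, Mbnl2 was called lower than in the vector control (log2 fold change -2.50, edgeR adjusted p = 0.0017) and Rbm24 higher (edgeR adjusted p = 0.00349), Celf2 and Mbnl2 were called higher at 24 h than at 0 h (edgeR adjusted p = 0.00629 and 0.00781), and the lone library was assumed to vary like the other groups.

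Mbnl2 was lower in SMYD3 CL5 than in the vector control in every library at both times. It was at 81.2 ± 62.7 against 218 ± 28.0 CPM at 0 h and at 117 ± 31.2 against 192 ± 18.7 CPM at 24 h (SD, n = 2 each), with edgeR adjusted p-values of 0.206 and 0.646. Although the SMYD3 CL5 libraries differed in level, their Mbnl1 shares were close. Mbnl1 made up 82.2% and 81.7% of the family per kilobase at 0 h, beside 56.7% and 53.8% in the vector control, and 72.2 ± 1.88% beside 52.7 ± 1.53% at 24 h (SD, n = 2 each). The Mbnl3 share was less even between the SMYD3 CL5 libraries, at 2.30% and 3.58% at 0 h and at 2.53% and 5.13% at 24 h. An exact two-sided permutation test of the Mbnl1 share in 2 libraries against 2 cannot go below p = 0.333, the value found at each time. Ptbp1 was also below the vector control in every library, at 282 ± 54.0 against 402 ± 11.6 CPM at 0 h and 282 ± 53.4 against 360 ± 24.4 CPM at 24 h (SD, n = 2 each), with edgeR adjusted p-values of 0.325 and 0.644. Mbnl1 separated at 24 h only, at 642 and 456 against 376 and 396 CPM in the vector control. Celf1 separated at 0 h only, at 1.21 and 0.743 against 1.70 and 1.41 CPM. The limit of p = 0.333 in an exact permutation test of 2 libraries against 2 applies to such separations too. Rbfox2, Rbm38, Celf2 and Mbnl3 had overlapping groups at both times.

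**Figure D4:**
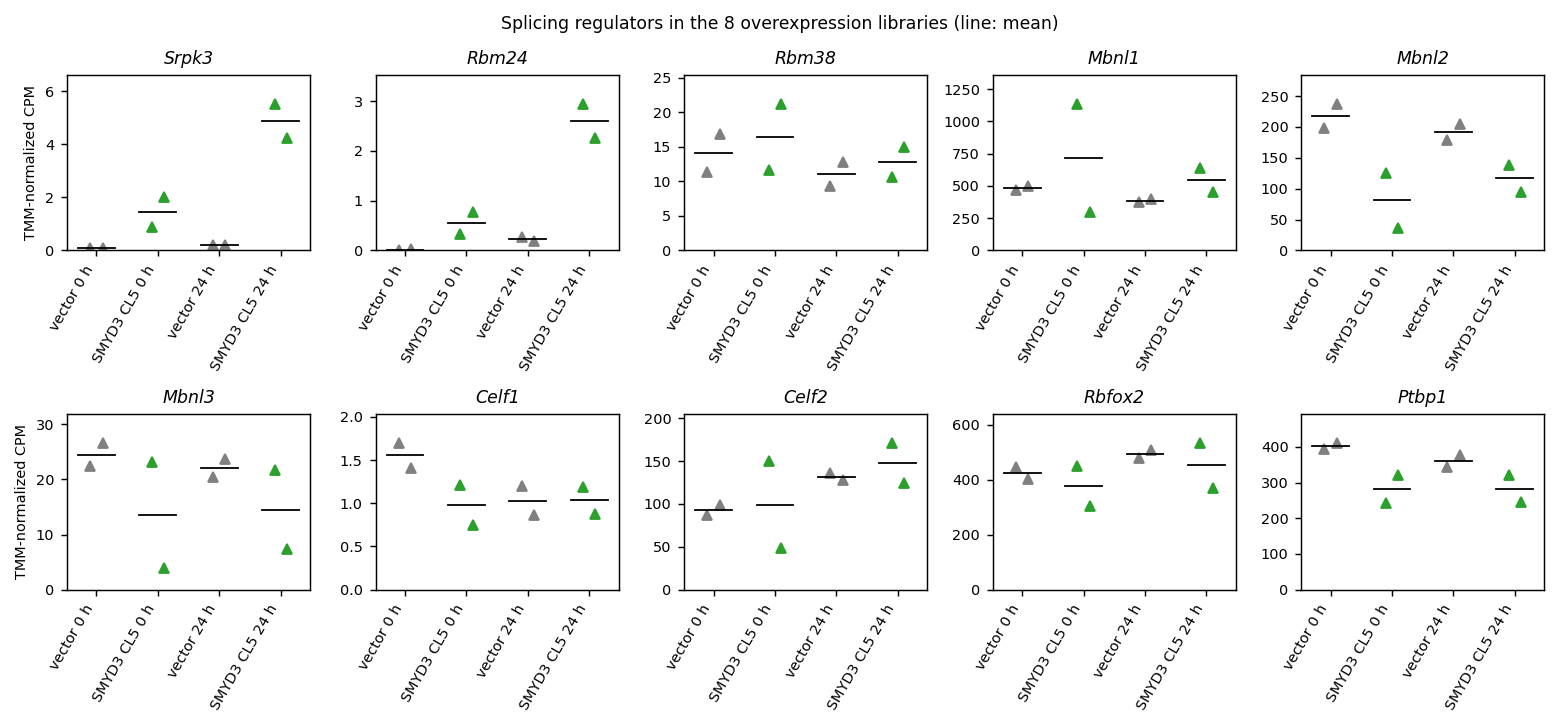
Level of each of the 10 genes in the 8 overexpression libraries, in TMM-normalized CPM on a linear axis from 0; triangles are single TRIzol libraries and the line is the mean of 2. Srpk3 and Rbm24 were above the vector control in every SMYD3 CL5 library, and Mbnl1 in SMYD3 CL5 at 0 h ranged from 294 to 1135 CPM.

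To place the 10 genes, 112 other splicing regulators were examined in 7 lists, of which 97 were tested in the siRNA libraries. Between 0 h and 24 h in siCtrl, 4 rose and 51 fell, where 29.4% of all genes were called and 2346 of the 15820 were lower. The 97 genes had a median log2 fold change of -0.36 beside 0.03 over all genes. Of the core spliceosome genes 19 of 26 fell and 0 rose, of the SR proteins 8 of 12 fell, and of the hnRNP proteins, which coat pre-mRNA, 14 of 22 fell. Of the SR protein kinases 1 rose and 1 fell of 7, and of the other MBNL, CELF and RBFOX relatives 1 of 4 rose. Among the other tissue splicing factors 2 rose and 9 fell of 23, and of the PTB relatives and cofactors 0 of 3 were called.

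The 3 largest rises among these regulators were those of Rbfox1, a muscle and neuronal relative of Rbfox2, Rbm20, which controls titin splicing, and Srpk2, a kinase related to Srpk3. Rbfox1 had 2 counts at 0 h and 64 at 24 h, a ratio of 54.2 (exact 95% interval 14.4 to 458). Rbm20 rose by 0.61 on the log2 scale (SE 0.10, edgeR adjusted p = 0.000106) and Srpk2 by 0.55 (SE 0.09, edgeR adjusted p = 0.000118). The 3 largest falls were those of Srsf7, with a log2 fold change of -1.17 (SE 0.11, edgeR adjusted p = 2.28e-07), Srsf1, with -1.01 (SE 0.25, edgeR adjusted p = 0.00318, at only 3.77 ± 0.331 CPM at 0 h, which is likewise low for a widely expressed gene and could not be checked), and Snrpd1, from 132 to 65.5 CPM on average (edgeR adjusted p = 6.45e-05). Srsf7 and Srsf1 are SR proteins and Snrpd1 is a component of the spliceosomal Sm ring. By edgeR, 0 of the 97 tested regulators were called with siSMYD3#1 against siCtrl at 24 h (5.85% of all genes, 9 at an unadjusted p under 0.05, 4 by DESeq2) and 0 with siSMYD3#2 (3.70% of all genes, 22 unadjusted, 3 by DESeq2). In SMYD3 CL5 against the vector control, 0 of 98 were called at 0 h (1.07% of all genes, 14 unadjusted, 3 by DESeq2) and 0 at 24 h (0.964% of all genes, 5 unadjusted, 2 by DESeq2).

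**Figure D5:**
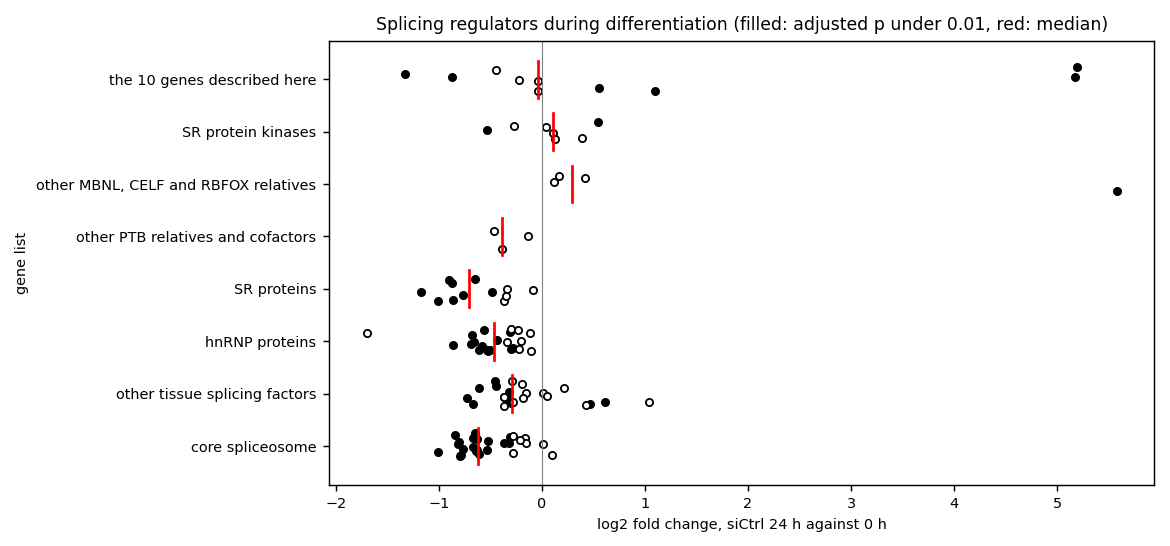
Log2 fold change between 0 h and 24 h in siCtrl for the 10 genes and the 97 other tested regulators, 1 point per gene, by list; filled points passed an edgeR adjusted p-value of 0.01 and red lines are list medians. The core spliceosome had a median of -0.62 and the 10 genes one of -0.04, with Srpk3 and Rbm24 above 5.

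The genes whose log2 CPM followed each gene most closely over the 18 siRNA libraries, among 15820, are given as a description, since these libraries share their times and extractions. Srpk3 was most like Otog, Tnni1 and Klhl41 (Pearson r = 0.985, 0.984 and 0.977). Rbm24 was most like Gm14221, Ckm and Mymk (r = 0.969, 0.956 and 0.956), of which Ckm encodes muscle creatine kinase and Mymk the fusion protein myomaker. Ptbp1 was most like Lsm6, Gtse1 and Ddx39 (r = 0.984, 0.976 and 0.976), and Mbnl3 most like Gk, Ahctf1 and Med14 (r = 0.955, 0.949 and 0.944). Celf2 had Peg3, Lix1 and Fam8a1 (r = 0.956, 0.955 and 0.945), Rbfox2 had Ctns, Alpk1 and Fbxl20 (r = 0.958, 0.957 and 0.949), and Mbnl1, which separated by extraction, had Lats2, Gprin3 and Cadm1 (r = 0.968, 0.966 and 0.965). The closest genes were less close for Rbm38 (Iba57, Fitm2 and Penk, r = 0.904, 0.888 and 0.885), Mbnl2 (Sec61a2, Cwf19l2 and Gng12, r = 0.861, 0.854 and 0.840) and Celf1 (Spata9, Rps18-ps3 and Rpl30-ps10, r = 0.741, 0.710 and 0.694).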

How the data were processed

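RNA-Seq was measured in 26 C2C12 libraries. The authors aligned reads to GRCm38 with HISAT2 2.1.0 and counted them per gene with featureCounts (Subread 1.6.3), and the deposited values are raw counts without normalization. The strand setting of the counting is not given in the sources used here. If strand was not used, Celf2, Ptbp1, Rbm38 and Mbnl2 could hold reads of opposite-strand genes, with which they share 1961, 983, 384 and 86 exon bases. Groups, times and extraction were taken from the labels. The study's methods call the replicates biological, but the labels do not tie them to separate cultures, so p-values measure the spread between libraries, which may be technical. Gene names, coordinates and exon lengths came from GENCODE M21, which holds 54495 of the 55341 identifiers, and promoters from RefSeq (GRCm38.p6).

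Each experiment was fitted on its own in R 4.3.3 with edgeR 4.0.16 (filterByExpr, TMM, quasi-likelihood test), over 15820 genes with extraction as covariate in the siRNA libraries and over 17835 genes in the overexpression libraries. Benjamini-Hochberg adjustment ran over all genes tested, with a threshold of 0.01. The SE is the log2 fold change divided by the square root of F. The script was tested on simulated data. DESeq2 1.42.0 and other settings served as alternatives. Exact 95% intervals are Clopper-Pearson intervals on summed counts.

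The 10 genes, the lists of other regulators and markers, and the tests were chosen with earlier results of these data known, and Srpk3 was among the genes already named. The rule for named genes was all 10 members, for other regulators up to 3 rises and 3 falls past the threshold with the largest change per comparison, Smyd3, Myog and Myh3 as checks (Myh3 rose by 9.57 on the log2 scale in siCtrl), and the 3 genes most correlated with each member. Cd68 and Tubb3 were named after their values were seen. In the siRNA experiment, the deviations of libraries with the same replicate number in the study had correlations of 0.313 to 0.851. Replicate number 3 was the TRIzol library of every siRNA condition. Without the TRIzol libraries the correlations fell to between -0.102 and 0.177, with a median of -0.003. In the overexpression libraries they were -0.097 to 0.483. With 2 libraries per condition, deviations from the group mean mirror each other. The correlations for other numbers (median -0.142) then only reverse the sign of those for same numbers (median 0.142). The same holds for the NucleoSpin libraries alone. A pairing was not established from these values.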

Additional observations from a re-analysis of the deposited data

How the results depend on the processing

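Of 3300 recomputed log2 fold changes of the 10 genes, 3190 stayed on their side of the threshold, 66 lost and 44 gained a call, and 0 called values changed sign; 104 values not called under either setting changed sign and were counted as unchanged. The counts that follow are given without the share of all genes called under the same setting. They therefore describe the settings and show nothing particular to the 10 genes. The number of the 10 genes called moved by more than 1.5 times as follows, where the cause was not tested. With all 26 libraries in 1 fit it was 3 in place of 7 for siSMYD3#1 and 3 in place of 5 for siSMYD3#2 between 24 h and 0 h, 1 in place of 3 for siSMYD3#1 against siCtrl at 24 h, and 3 at 0 h and 2 at 24 h for SMYD3 CL5 against the vector control, in place of 0 and 1. Without the extraction covariate it was 0 for siSMYD3#1 and 3 for siSMYD3#2 between times, and 1 for siSMYD3#1 and 0 for siSMYD3#2 against siCtrl at 24 h. Without a filter on low counts it was 5 for siSMYD3#1 and 2 for siSMYD3#2 at 24 h, 3 at 0 h and 2 at 24 h for SMYD3 CL5, and 1 for the change in each siRNA effect. With the NucleoSpin libraries only it was 2 for siSMYD3#2 against siCtrl and 1 between the siRNAs at 24 h. At an adjusted p under 0.05 it was 2 for siSMYD3#2 against siCtrl and 1 between the siRNAs at 24 h, 2 for SMYD3 CL5 at both times and 1 for the change in the siSMYD3#1 effect. DESeq2 called 2 for SMYD3 CL5 at both times and 1 for the change in the siSMYD3#1 effect. Leaving out 1 library at a time gave 2 to 7 for siSMYD3#1 between times, 0 to 1 for the change in the siSMYD3#1 effect and 0 to 2 for SMYD3 CL5 between times. For SMYD3 CL5 against the vector control it gave 0 to 3 at 0 h and 0 to 2 at 24 h. Ranges that did not pass 1.5 times were 6 to 7 for siCtrl and 4 to 5 for siSMYD3#2 between times, and 2 to 3 for siSMYD3#1 against siCtrl at 24 h. For siSMYD3#2 against siCtrl at 24 h the number stayed at 1. The replicate block changed no call of the 10 genes in either experiment. Depth limits Srpk3 and Rbm24 at 0 h and Celf1, as counted, throughout.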
